A study of Mus musculus with 2 samples.

Results

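Proteasome subunits and assembly factors were examined in pancreatic islets of PERK knockout mice and of wild-type mice, both taken 2 days after birth. Members were the genes of the array's annotation with a symbol of the proteasome families Psma to Psmg, without the immunoproteasome subunits Psmb8, Psmb9 and Psmb10, and the rule found 45 of the 12393 genes on the array. Of these, 43 encode proteasome proteins. Psmc3ip, which acts in meiotic recombination and is named for its binding to Psmc3, and Psme3ip1, a nuclear protein named for its binding to Psme3, were matched by symbol only.

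PERK, the product of Eif2ak3, sits in the membrane of the endoplasmic reticulum (ER) and slows translation through eIF2 alpha when proteins misfold there. There was 1 Affymetrix mouse 430A array per genotype, hybridised with biotin-labelled cRNA from islets isolated with collagenase P. Wild-type pups were of mixed strain and of both sexes per the labels. The sources used here do not give the strain, the sex or the deleted exons for the knockout, nor whether pups were pooled. The design poses the question of how transcript levels in neonatal islets differ without PERK.

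With 1 array per genotype there is no replicate check and no test, and every ratio below compares these 2 libraries. Each gene has the signal intensity, in arbitrary units, of its brightest probe set, and ratios are log2 PERK knockout over wild type. A gene is called measured when both signals lie above a floor of 39.8. The error available is the disagreement between probe sets of the same gene, an SD of 0.26 on the log2 scale per probe set over 2597 genes and 0.21 over the 1032 bright genes among them. Bright here means a mean signal of at least 326.8, the 75th percentile of measured genes. Differences between animals or islet preparations are not in it. Counts use a limit of 1.2-fold, a log2 difference of 0.26, which is about that error, and a limit of 2-fold.

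The proteasome degrades proteins that carry ubiquitin chains, in the cytosol and the nucleus, and it receives misfolded secretory proteins that are moved back out of the ER. Its barrel-shaped core particle is built of alpha rings, which gate the entrance, and beta rings, which hold the proteases. A regulatory cap binds ubiquitin chains, removes them and unfolds the substrate with a ring of ATPases. Beta cells of the islet fold large amounts of proinsulin in the ER, which makes this disposal route part of their secretory work.

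Eif2ak3 had a signal of 58.7 in the PERK knockout islets, against 117.7 in the wild-type islets, 2.01-fold lower, on its brightest probe set. Its 2 other probe sets lay at the floor, and probes that lie beyond the deletion would not check the label. Islet hormones were bright on both arrays, with Ins2 at 6163.2 in the knockout and 5652.3 in the wild type. Of the 7 beta cell markers on the array, the other 6 had lower signals in the knockout, 5 of them past 1.2-fold, and the list median was -0.58. The lowest of these was Pcsk1, which cleaves proinsulin, with 332.6 in the knockout and 919.8 in the wild type. Immune and proliferation markers also differed between the preparations, in opposite directions. All 12 listed immune genes were on the array, with a summed signal of 3531 in the knockout and 1158 in the wild type. The 5 proliferation markers on the array summed to 641 in the knockout and 1724 in the wild type, with a median log2 ratio of -1.41. The 6 acinar markers summed to 30413 in the knockout and 29293 in the wild type. Of these, 5 lay within 1.2-fold, and Cel had 2999.1 in the knockout and 2174.3 in the wild type, 1.38-fold higher. The part of these differences in the proteasome ratios was not tested. No listed marker on the array lay at the floor on both arrays. In such bulk RNA, fewer cells of a type and less RNA per cell cannot be told apart.

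Proteasome transcripts were nearly level between the genotypes, with a small shift toward lower signals in the PERK knockout islets. Of the 45 members, 44 were measured, and their median log2 ratio was -0.08, 1.06-fold lower, with an SD over genes of 0.20. Among all 8133 measured genes the median was 0.03 and the SD 0.33. The members' ratios ran from -0.47 to 0.52.

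No member was 2-fold apart in either direction, a limit passed by 0.652% of measured genes on the lower side and 0.516% on the higher side. At 1.2-fold, 6 of 44 members (13.6%) were lower, close to the 14.6% of all measured genes. On the higher side 3 of 44 (6.82%) were past 1.2-fold, against 21.2% of all measured genes. The other 35 members (79.5%) lay between these limits, as did 64.2% of all measured genes.

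The shift showed in the sign of the ratios rather than in their size. A total of 31 of 44 members (70.5%) had a lower signal in the knockout, where 45.1% of all measured genes did. Most proteasome transcripts were bright, and bright genes as a whole leaned the same way. The 2034 bright genes had a median of -0.03, and 55.6% of them were below equality. Among them 15.8% were at least 1.2-fold lower and 10.2% at least 1.2-fold higher. The 33 bright members had a median of -0.08, with 24 (72.7%) below equality, 5 at least 1.2-fold lower and 1 at least 1.2-fold higher. The part of brightness in the members' shift was not tested.

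The share of members below equality varied with how the arrays were scaled. The count at least 1.2-fold lower changed with median centring but not with quantile normalisation. With median centring 13 members were at least 1.2-fold lower and 2 higher, but the share of all genes at least 1.2-fold lower was also up, at 23.3%. Below equality were 84.1% of members, against 59.3% of all genes. With quantile normalisation 6 were lower, where 16.9% of all genes were, and 5 higher, and 59.1% were below equality, against 49.7% of all genes. The share of all genes at least 1.2-fold higher was not computed for either setting, so the higher counts have no background beside them. Relative to the median of all genes, the members' median was -0.11 with median centring and -0.05 with quantile normalisation.

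**Figure D1:**
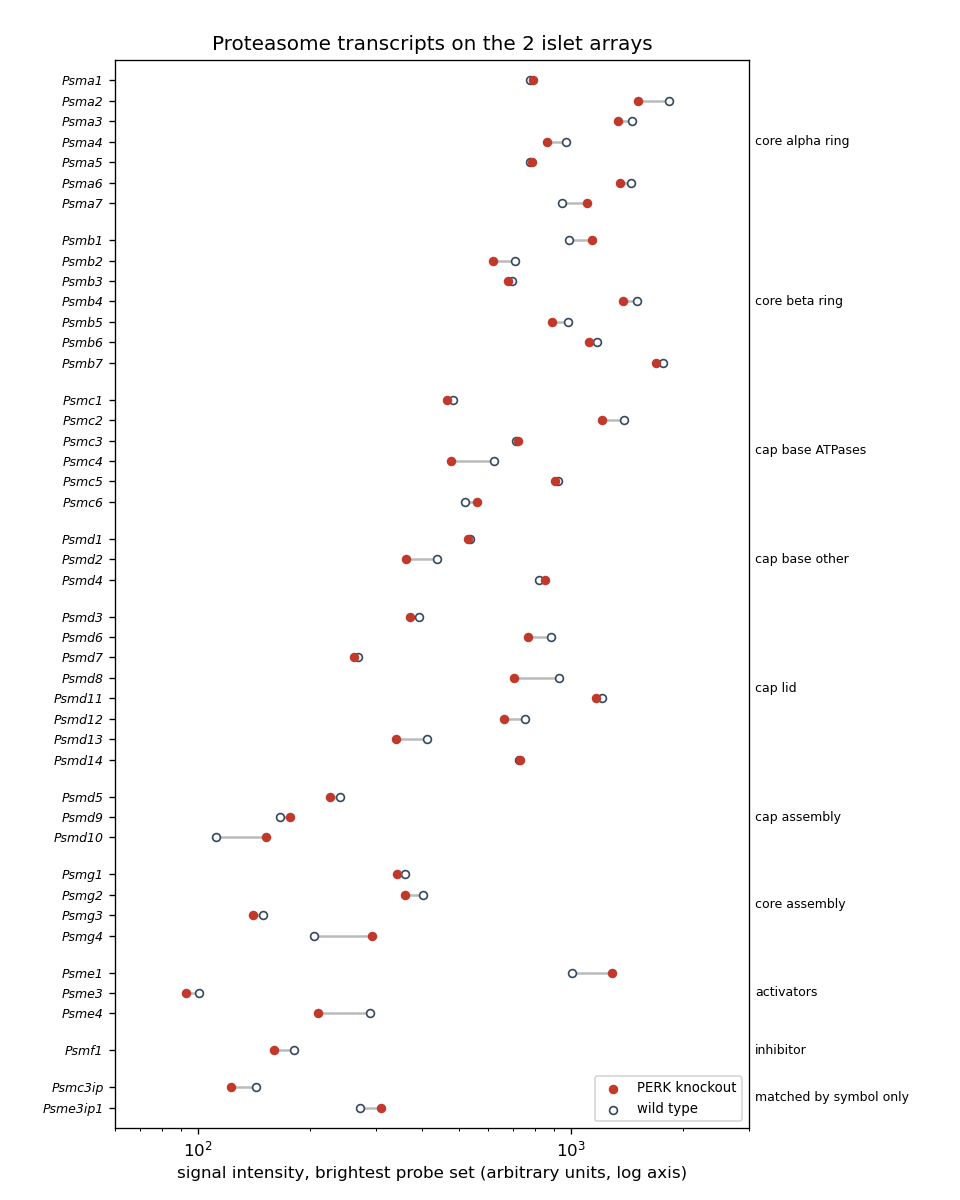
Signal intensity (arbitrary units, log axis) of the 44 measured members in the PERK knockout (filled points) and wild-type (open points) islets, 1 array each, grouped by role. In most rows the points nearly coincide, and in 31 of 44 the knockout point lies to the left of the wild-type point.

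The promoters of the members furthest from equality are shown first. RefSeq's promoter table of GRCm38.p6 held 37 of the 45 members. Each run is the 120 bases before the gene's start, 5′ to 3′ on the gene's strand. Capitals mark the letters of 4 motifs searched on both strands: TGACNNNGC, the core of the antioxidant response element, CCAAT, the ETS motif CCGGAAG and the Sp1 motif GGGCGG. The first group gives the 3 lowest ratios, Psme4 (chr11:30771655-30771774, plus strand), Psmd8 (chr7:29180674-29180793, minus strand) and Psmc4 (chr7:28050093-28050212, minus strand).
Psme4: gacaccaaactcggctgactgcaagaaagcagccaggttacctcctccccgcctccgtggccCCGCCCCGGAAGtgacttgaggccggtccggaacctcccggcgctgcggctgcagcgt
Psmd8: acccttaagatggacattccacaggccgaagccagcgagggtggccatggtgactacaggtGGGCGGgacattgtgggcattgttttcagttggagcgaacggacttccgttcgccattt
Psmc4: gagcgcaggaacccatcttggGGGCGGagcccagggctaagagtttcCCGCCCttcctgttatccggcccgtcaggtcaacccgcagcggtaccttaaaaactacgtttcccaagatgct
In Psme4 the Sp1 letters, read on the minus strand, and the ETS letters overlap by 1 base.

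The second group gives the 3 highest ratios, Psmg4 (chr13:34162844-34162963, plus strand), Psmd10 (chrX:140956712-140956831, minus strand) and Psme1 (chr14:55578374-55578493, plus strand).
Psmg4: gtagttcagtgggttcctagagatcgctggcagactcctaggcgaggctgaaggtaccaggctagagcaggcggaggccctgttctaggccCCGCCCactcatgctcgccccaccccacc
Psmd10: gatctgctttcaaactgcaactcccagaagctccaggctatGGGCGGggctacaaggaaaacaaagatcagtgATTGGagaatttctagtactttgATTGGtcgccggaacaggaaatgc
Psme1: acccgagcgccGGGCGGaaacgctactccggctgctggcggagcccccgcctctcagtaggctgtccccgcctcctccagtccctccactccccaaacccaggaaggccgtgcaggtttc
All 6 of these runs hold the Sp1 letters, so that motif does not separate the lowest ratios from the highest.

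The last pair shows the other motifs in a cap and a core promoter, Psmd2 (chr16:20651532-20651651, plus strand), with the ETS letters read on the minus strand, and Psmb5 (chr14:54617996-54618115, minus strand), with the antioxidant response element core.
Psmd2: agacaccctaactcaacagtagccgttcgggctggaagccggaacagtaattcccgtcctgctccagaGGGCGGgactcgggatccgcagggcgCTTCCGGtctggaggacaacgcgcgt
Psmb5: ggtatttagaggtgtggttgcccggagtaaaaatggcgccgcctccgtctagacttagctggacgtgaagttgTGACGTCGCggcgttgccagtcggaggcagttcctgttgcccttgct
Over the whole window, from 250 bases before to 50 after the start, the ETS letters were in the promoters of 16 of 37 members (43.2%), against 9.93% of the 27025 genes in the table and 20.8% of the 6606 of them that were measured on the arrays. They were in 9 of 14 cap genes and in 1 of 11 core genes, Psma6. The members with the ETS letters had a median log2 ratio of -0.11 (n = 16), and those without had -0.04 (n = 21). The same split gave -0.04 with and -0.12 without the Sp1 letters (n = 22 and 15). For CCAAT it gave -0.04 and -0.09 (n = 14 and 23), and for the antioxidant response element core -0.11 and -0.09 (n = 6 and 31). Any link between a motif and the ratios was not tested.

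The other motifs were about as frequent in members as in other genes, or lay between the backgrounds. Antioxidant response element cores, the kind of site used by the factor Nfe2l1 that raises proteasome genes when the proteasome is inhibited, were in 6 of 37 members (16.2%) and in 14.0% of all genes. CCAAT was in 37.8% of members and 41.1% of all genes. The Sp1 letters were in 59.5% of members, 38.2% of all genes and 70.6% of measured genes. These are matches of letters in a window and not sites of binding.

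Core particle transcripts had a median log2 ratio of -0.09 over all 14 genes of the alpha and beta rings, 1.06-fold lower, with an SD over genes of 0.14. A total of 10 (71.4%) were below equality, 1 (7.14%) was at least 1.2-fold lower and 0 were at least 1.2-fold higher. The shares of all measured genes were 45.1%, 14.6% and 21.2%, and those of bright genes 55.6%, 15.8% and 10.2%. The alpha ring genes, whose proteins gate the channel, had a median of -0.10, and the beta ring genes a median of -0.08.

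In the alpha ring, Psma2 had the largest difference, with 1509.7 in the PERK knockout islets, against 1829.0 in the wild-type islets, 1.21-fold lower. Psma4 had 861.3 in the knockout and 969.7 in the wild type, and Psma3 had 1341.1 in the knockout and 1461.7 in the wild type, log2 ratios of -0.17 and -0.12. These 3 genes and Psma6, with 1356.8 in the knockout and 1449.7 in the wild type, made up the lower side of the ring. Psma1, with 789.2 in the knockout and 776.4 in the wild type, and Psma5, with 787.2 in the knockout and 778.8 in the wild type, were level at log2 ratios of 0.02. Psma7 had 1104.7 in the knockout and 946.3 in the wild type, a ratio of 0.22, but its second probe set gave -0.23, so the array does not settle its direction. Psma8, which replaces an alpha subunit in the testis, was at the floor on both arrays, with 7.9 in the knockout and 12.6 in the wild type.

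The beta ring carries the active sites. Psmb5, the chymotrypsin-like protease and main target of proteasome inhibitors, had 889.6 in the PERK knockout islets, against 979.6 in the wild-type islets, a log2 ratio of -0.14. Psmb6, the caspase-like protease, had 1118.2 in the knockout and 1178.6 in the wild type (-0.08). Psmb7, the trypsin-like protease, had 1687.3 in the knockout and 1767.6 in the wild type (-0.07). All 3 catalytic subunits thus had slightly lower signals in the knockout, by less than the error of a probe set.

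Among the beta subunits without an active site, Psmb2 had 618.1 in the knockout and 707.7 in the wild type (-0.20), and Psmb4 had 1378.6 in the knockout and 1501.5 in the wild type (-0.12). Psmb3 was about level, with 677.3 in the knockout and 695.8 in the wild type. Psmb1 alone of the beta ring was higher, with 1137.0 in the knockout and 986.1 in the wild type (0.21), and its second measured probe set gave 0.36. The second probe set of Psmb4 gave 0.11. The RefSeq gene table lists 6 pseudogenes named after 4 core genes, Psma5, Psmb5, Psmb6 and Psmb7, whose signals these probe sets could share.

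Cap transcripts had a median log2 ratio of -0.05 over all 17 genes, 1.04-fold lower, with an SD over genes of 0.15. A total of 13 (76.5%) were below equality, 4 (23.5%) were at least 1.2-fold lower and 0 were at least 1.2-fold higher. The shares of all measured genes were 45.1%, 14.6% and 21.2%, and those of bright genes 55.6%, 15.8% and 10.2%. The cap median stood 0.04 above the core median, within the probe set error of that difference (0.12), and the means ran the other way, at -0.12 for the cap and -0.06 for the core. That error takes genes as independent and uses the SD of 0.26 over all genes, where bright genes had 0.21. It holds no differences between animals or islet preparations. With medians and means in opposite order, the arrays do not settle which of core and cap was lower.

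**Figure D2:**
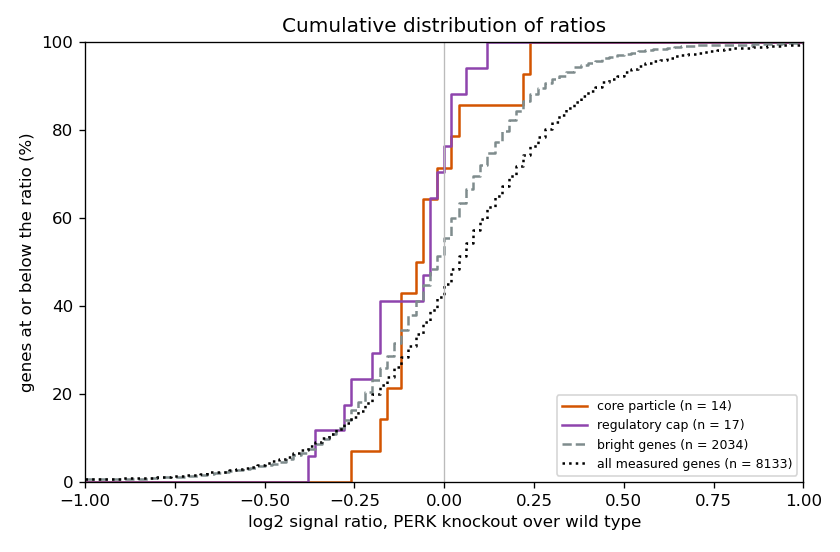
Cumulative distribution of log2 signal ratios (PERK knockout over wild type) for core particle genes, cap genes, bright genes and all measured genes; the vertical axis is the percent of genes at or below each ratio. The core and cap curves cross each other and are steeper than both backgrounds, with SDs over genes of 0.14 and 0.15 against 0.29 and 0.33.

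In the ATPase ring of the cap base, which unfolds substrates and threads them into the core, Psmc4 had the largest difference. It had 477.8 in the PERK knockout islets, against 620.8 in the wild-type islets, 1.30-fold lower, and its second probe set gave -0.42 beside -0.38 on the first. Psmc2 had 1215.0 in the knockout and 1389.8 in the wild type (-0.19, and -0.17 on its second probe set). The remaining ATPases were close to level. Psmc1 had 465.7 in the knockout and 482.2 in the wild type, and Psmc5 had 908.1 in the knockout and 925.4 in the wild type. Psmc3 had 723.5 in the knockout and 714.2 in the wild type, and Psmc6 had 558.6 in the knockout and 518.8 in the wild type. The second probe set of Psmc6 gave -0.26 against 0.11 on the first. The 6 ATPase genes had a median of -0.04.

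Beside the ATPases, the base holds large scaffold proteins and ubiquitin receptors. Psmd2, the scaffold on which ubiquitin shuttle proteins dock, had 362.4 in the knockout and 437.2 in the wild type, 1.21-fold lower. Psmd1, the other scaffold, had 530.6 in the knockout and 536.2 in the wild type. Psmd4, a ubiquitin receptor, had 851.7 in the knockout and 822.0 in the wild type, a log2 ratio of 0.05 with -0.10 on its second probe set.

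The lid removes ubiquitin chains as the substrate enters, and its genes had a median log2 ratio of -0.13. Of its 8 genes, 7 (87.5%) were below equality, against 45.1% of all measured genes and 55.6% of bright genes. Psmd8, a scaffold subunit of the lid, had 704.5 in the PERK knockout islets, against 928.3 in the wild-type islets, 1.32-fold lower, on its sole probe set. Psmd13, also a scaffold subunit, had 338.8 in the knockout and 412.5 in the wild type, 1.22-fold lower, but its second probe set gave 0.14. Scaffold subunits Psmd6, with 765.2 in the knockout and 886.7 in the wild type, and Psmd12, with 662.9 in the knockout and 753.8 in the wild type, had log2 ratios of -0.21 and -0.19. The second probe set of Psmd6 gave 0.05, and Psmd12, like Psmd8, was measured by 1 probe set only.

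The lid genes nearest to equality include its protease. Psmd14, the deubiquitinase of the lid, had 731.2 in the knockout and 724.7 in the wild type, and its partner Psmd7 had 261.5 in the knockout and 268.9 in the wild type. Psmd3 had 370.1 in the knockout and 391.2 in the wild type. Psmd11 had 1169.8 in the knockout and 1209.1 in the wild type, and its 4 other measured probe sets lay on both sides of equality, from -0.17 to 0.18. The ratios of 4 of the 8 lid genes lay outside that range.

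Assembly factors, activators and the inhibitor varied more than the subunits. These 11 measured members had an SD over genes of 0.30, where the 31 core and cap genes had 0.15. Of the 11, 3 were bright, against 30 of the 31, and probe sets of bright genes disagreed less (0.21 against 0.26 over all genes). All 3 members at least 1.2-fold higher in the knockout were among these 11, as was 1 of the 6 at least 1.2-fold lower. These are 27.3% of the 11 higher and 9.09% lower, where 21.2% and 14.6% of all measured genes were. Of the 31 core and cap genes, 0 were at least 1.2-fold higher and 5 (16.1%) at least 1.2-fold lower.

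Psmg4, a chaperone of core assembly, had the highest ratio of all members, with 293.3 in the PERK knockout islets, against 204.2 in the wild-type islets, 1.44-fold higher and at the 94.1 percentile of ratios of all measured genes. Its partners did not share that difference. Psmg1 had 342.7 in the knockout and 358.4 in the wild type, Psmg2 had 358.3 in the knockout and 400.1 in the wild type, and Psmg3 had 140.5 in the knockout and 149.4 in the wild type. Psmg3 and Psmg4 act as a pair on the alpha ring, as Psmg1 and Psmg2 do, and on these arrays Psmg4 stood alone, on its sole probe set.

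The chaperones of the cap base likewise differed among themselves. Psmd10, gankyrin, had 152.4 in the knockout and 111.9 in the wild type, 1.36-fold higher on its sole probe set. Psmd9 had 176.5 in the knockout and 166.2 in the wild type, and Psmd5 had 226.1 in the knockout and 240.9 in the wild type. Neither of these passed 1.2-fold.

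Of the activators, which bind the ends of the core in place of the cap, Psme1 and Psme4 lay on opposite sides. Psme1, a subunit of the interferon-inducible activator, had 1292.2 in the PERK knockout islets, against 1008.1 in the wild-type islets, 1.28-fold higher. Its partner Psme2 shares a probe set with Psme2b and so was no member; that probe set had 500.3 in the knockout and 500.6 in the wild type. Psme4, a nuclear activator, had the lowest ratio of all members, with 209.3 in the knockout and 289.7 in the wild type, 1.38-fold lower and at the 4.93 percentile of all measured genes. One of its other probe sets gave -0.50 and the third gave 0.44, so its probe sets disagree by more than the difference itself.

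The nuclear activator subunit Psme3 had 92.7 in the knockout and 100.4 in the wild type (-0.12), with 0.22 on its second probe set. Psmf1, which inhibits the core in the test tube, had 159.5 in the knockout and 181.5 in the wild type (-0.19), with 0.00 and 0.19 on its other measured probe sets. Both are within the error of a probe set. The genes matched by symbol only were on opposite sides, Psmc3ip with 122.3 in the knockout and 142.7 in the wild type, and Psme3ip1 with 309.4 in the knockout and 272.2 in the wild type.

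**Figure D3:**
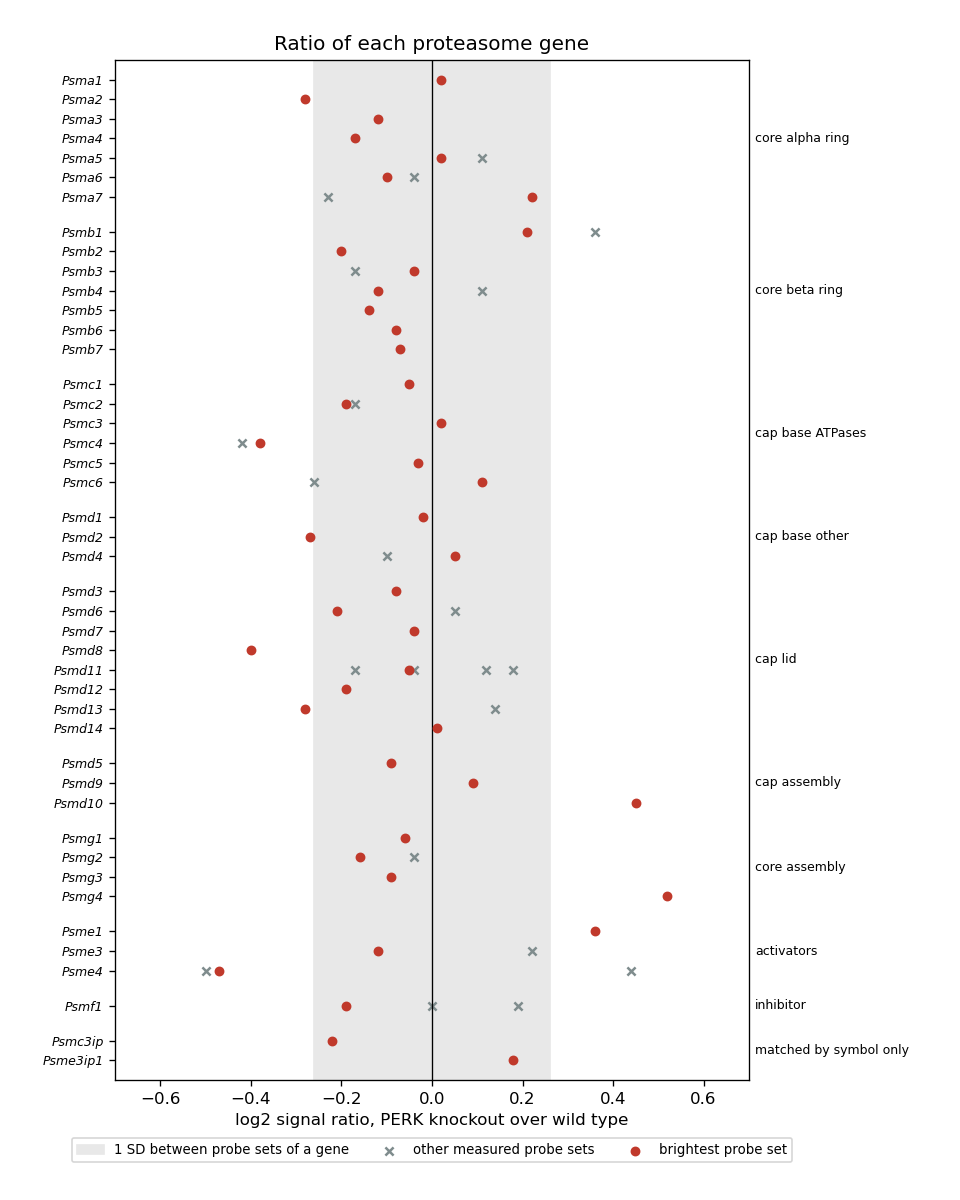
Log2 signal ratio (PERK knockout over wild type) of each measured member on its brightest probe set (points) and on its other measured probe sets (crosses); the grey band is 1 SD between probe sets of a gene (0.26). Of the 44 points, 35 lie within the band, and several of the 9 outside it have a cross on the other side of equality or no cross at all.

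Different probe sets of the same member often disagreed in direction. The members had 82 probe sets, of which 66 were measured, 3 were above the floor on 1 array only and 13 were at the floor on both. For 17 members a second probe set was measured, and it had the sign of the first in 9 of them (52.9%), where 61.2% of the 2597 genes with such a pair did. Their disagreement was an SD of 0.17 per probe set, nearly the SD of 0.20 over the members themselves. Of the 9 members past 1.2-fold, Psmc4 was past it on both of its probe sets. Psme4 and Psmd13 had a probe set on the other side of equality, and the remaining 6 (Psma2, Psmd2, Psmd8, Psme1, Psmd10 and Psmg4) were measured by 1 probe set only.

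The immunoproteasome subunits, which replace the catalytic subunits in immune cells and under interferon, lay on the higher side. So did 4467 of all 8133 measured genes. Psmb9 had 110.0 in the knockout and 73.5 in the wild type, 1.5-fold higher. Psmb8 had 141.4 in the knockout and 123.1 in the wild type, and Psmb10 had 265.6 in the knockout and 226.9 in the wild type. Psmb8 and Psmb10 were within the error of a probe set, at the 71.9 and 75.1 percentiles of all measured genes. Psme1 was on the same side, as were the immune markers, of which all 9 measured genes passed 1.2-fold on that side, with a median log2 ratio of 0.87. The probe set shared by Psme2 and Psme2b was level, with 500.3 in the knockout and 500.6 in the wild type. The part of immune cells in these ratios was not tested. The standard catalytic subunits Psmb5, Psmb6 and Psmb7 were on the lower side, each by less than the error of a probe set. Any exchange of subunits was not tested.

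Further genes of the route into the proteasome had a median at equality and a wider spread than the members. On 5 lists of cap and assembly genes outside the naming rule, shuttles and deubiquitinases, regulators of transcription, ubiquitin genes and the AAA ATPase Vcp with its cofactors, 23 genes were measured. Their log2 ratios ran from -0.65 to 0.36 with a median of 0.00, and 0 were at least 2-fold apart. The SD over these genes was 0.25, against 0.20 over the members. Other measured probe sets of some genes differed from the brightest, as for Ubqln1 (-0.13, with -0.52 on the other) and Usp14 (0.13, with 0.29 and 0.44). At 1.2-fold, 4 (17.4%) were lower, close to the 14.6% of all measured genes. On the higher side 1 (4.35%) was past 1.2-fold, against 21.2% of all measured genes. The 6 listed ubiquitin and E1 genes, and Adrm1, Paaf1 and Ddi2, were not analysed here.

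Pomp, the maturation factor that guides beta ring assembly, had the lowest ratio on these lists. It had 884.8 in the PERK knockout islets, against 1389.4 in the wild-type islets, 1.57-fold lower and at the 2.23 percentile of all measured genes, on its sole probe set. That is a larger difference than in any member. Nploc4, a cofactor with which Vcp extracts ubiquitinated proteins from the ER membrane, had 144.8 in the knockout and 215.7 in the wild type, 1.49-fold lower. Vcp itself had 756.2 in the knockout and 934.8 in the wild type, 1.24-fold lower, whereas the other cofactor Ufd1 had 303.3 in the knockout and 257.4 in the wild type, 1.18-fold higher. The 3 proteins work as a complex. Nploc4 and Vcp were on the lower side, and Ufd1 was on the higher side by less than 1.2-fold, with log2 ratios of 0.24 and 0.23 on its 2 measured probe sets.

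Uchl5, a deubiquitinase of the cap, had 271.8 in the knockout and 332.3 in the wild type, 1.22-fold lower, and the shuttle gene Ubqln4 had 155.6 in the knockout and 121.0 in the wild type, 1.29-fold higher. Transcription factors of proteasome genes were near equality. Nfe2l1 had 280.5 in the knockout and 290.2 in the wild type, Nfe2l2 had 188.6 in the knockout and 179.2 in the wild type, and Ngly1, the enzyme that processes Nfe2l1, had 158.0 in the knockout and 169.0 in the wild type.

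Other multi-subunit complexes had medians of similar size. The COP9 signalosome, which is related to the lid in structure and removes Nedd8 from ubiquitin ligases, had a median log2 ratio of -0.14 over 9 genes, with 8 below equality. Its members past 1.2-fold were Cops4, with 243.9 in the knockout and 298.7 in the wild type, and Cops8, with 416.5 in the knockout and 285.4 in the wild type. The cytosolic chaperonin CCT, which folds actin and tubulin, had a median of -0.06 over 8 genes, with 6 below equality and 0 past 1.2-fold. Of all measured genes, 45.1% were below equality, 14.6% at least 1.2-fold lower and 21.2% at least 1.2-fold higher. For the COP9 signalosome the 1.2-fold shares were 11.1% on each side. These counts rest on the brightest probe set of each gene, and other measured probe sets of some genes differed. For Cct4 (-0.13) the 4 others gave 0.19 to 0.59, and for Cct2 (0.14) the 2 others gave 0.13 and 0.38. Another probe set gave 0.95 for Cops7a, 0.23 for Cops7b and 0.07 for Cops2, each below equality on its brightest. The proteasome median of -0.08 lay between these.

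**Figure D4:**
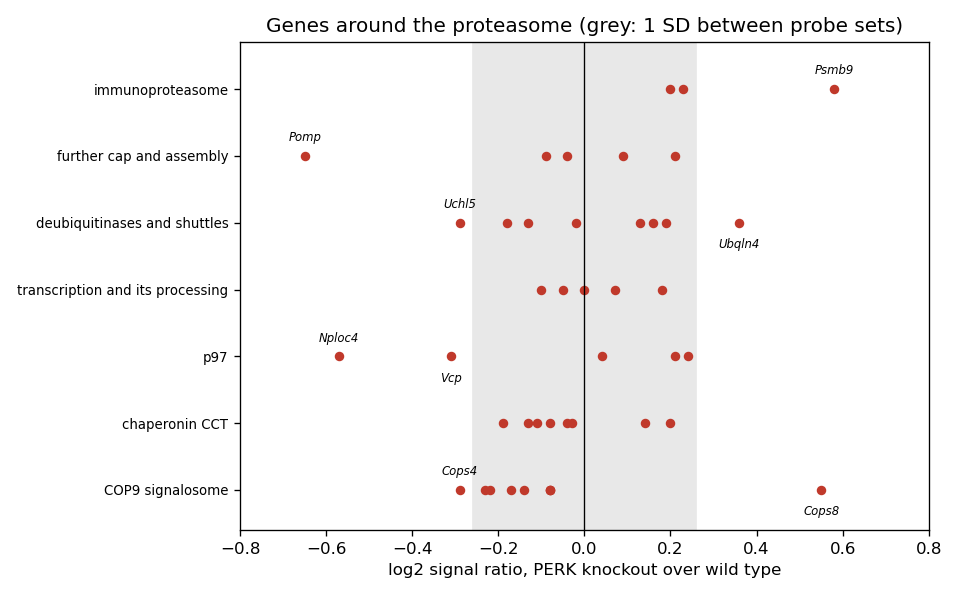
Log2 signal ratio (PERK knockout over wild type) of each measured gene on the immunoproteasome list, 4 lists around the proteasome and 2 other complexes; genes at least 1.2-fold apart are named and the grey band is 1 SD between probe sets (0.26). Pomp (-0.65) and Nploc4 (-0.57) are lowest, and Psmb9 (0.58) and Cops8 (0.55) highest.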

How the data were processed

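Linear signal intensity values of 22690 probe sets on both arrays were deposited by the authors. The submitters' processing notes name GCOS 1.02 alone; background correction, summary method, detection calls and genome build are not stated in the sources used here. Trimmed means (2% off each end) were 150.1 on both arrays, so the signals had been scaled alike before deposit.

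The knockout array was scaled to the trimmed mean of the wild type (factor 1.00), and a floor was set at the 40th percentile of both arrays together (39.8). Probe sets with 1 gene symbol (20380) gave 12393 genes, each by its brightest probe set: 8133 were measured, 693 were above the floor on 1 array and 3567 on neither. Percentiles of a ratio are among the measured genes. The members, lists and motifs were chosen with earlier results of these data known. All members are named, and of the other lists the genes at least 1.2-fold apart. Ins2, Pcsk1, Cel, Ufd1, Psmb8, Psmb10, Usp14, Ubqln1 and the transcription genes were named after their values were seen. Bright genes were set as a background after seeing the data. The procedure was tested on simulated data. Calculations used Python 3.11.15 with pandas 2.3.3. The number of arrays limits the precision.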

Additional observations from a re-analysis of the deposited data

How the results depend on the processing

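Over 10 other processing choices and the removal, chosen after seeing the data, of the 2 genes matched by symbol only, 84 of 94 summary values stayed within their error or within 1.5 times the reported count. With median centring, which moved the median of all genes to -0.06, the medians were -0.18 for all members, -0.18 for the core and -0.15 for the cap, and 13 members were at least 1.2-fold lower, while the share of all genes past that limit was 23.3%, against 14.6% as reported; relative to all genes the members' median was unmoved at -0.11. Quantile normalisation gave 5 members at least 1.2-fold higher, with no share of all genes computed beside that count. It narrowed the members' median relative to all genes to -0.05. With the second brightest probe set, available for 17 members, the core median was 0.04 and cap minus core was -0.14. Below equality were 10 of these 17 (58.8%), against 44.6% of all genes with such a probe set. At least 1.2-fold lower were 2, where 15.1% of all such genes were. At least 1.2-fold higher was 1, with no share of all genes computed. On that probe set Psmd13 turned round, to 0.14. Of 413 values of single members under the alternatives, 408 moved by less than the probe set SD. Some of these choices could not move the members. The deposited scale repeated the scaling used, and both other floors lay below every measured member, so all their values were unchanged. Such values are counted among the 408 and the 84. Median centring shifted every ratio by the same amount, which was smaller than the probe set SD. Neither total is therefore a measure of robustness. No count of members at 2-fold left 0 under any of the 10. No paired analysis was possible because each genotype has 1 array, and no replicate could be left out for the same reason. No background correction or slide could be varied, since the deposited values were already summarised.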
